A study of Mus musculus with 14 samples.

Results

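Platelet-derived growth factors (PDGFs) are secreted dimers that signal through receptor tyrosine kinases. The genes described are the 4 ligand genes Pdgfa, Pdgfb, Pdgfc and Pdgfd and the 2 receptor genes Pdgfra and Pdgfrb, taken by name as the whole family. These 6 genes stand among 26528 gene symbols in the brain matrix and 28316 in the retina matrix. Endothelial cells secrete PDGF-B, and pericytes and smooth muscle cells respond through PDGFRβ, which draws them onto the vessel wall. PDGF-A acts through PDGFRα, the receptor of oligodendrocyte precursors and of retinal astrocytes, and retinal ganglion cells are a known source of PDGF-A for those astrocytes. PDGF-C and PDGF-D are secreted in a latent form that proteases activate, PDGF-C then acting mainly on PDGFRα and PDGF-D mainly on PDGFRβ.

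The study counted unique molecular identifiers (UMIs) from RNA 3′ ends in single nuclei of mouse retina and of brain tissue enriched for vessel fragments. It had 1 control and 1 CKO (conditional knockout) brain library, and 1 control and 11 CKO retina libraries. The CKO mice carried VEcadCreER (named Cdh5CreER in the study's methods), 1 floxed Tgfbr1 allele and 1 null allele, and 4-hydroxy-tamoxifen was given between postnatal days 3 and 5. Every cell of these mice thus carries the null allele of Tgfbr1, a TGF-beta receptor gene, and VEcadCreER, active in endothelial cells, deletes the floxed allele there. Both control libraries are labelled wild type, while the study describes its controls as typically carrying Cdh5CreER with 1 floxed and 1 normal Tgfbr1 allele. The sample annotation lists induction on postnatal days 3 to 5 for the control libraries as well, and whether controls received 4-hydroxy-tamoxifen is not clear. The methods give postnatal day 14 for these tissues, and the series summary says young adult. Each brain library pooled vessel fragments of 2 brains. Levels are given as CPM, a gene's UMIs scaled to the total UMIs of the nuclei with 1 cell type label in 1 library. Libraries with at least 20 nuclei of a label are used, and with at least 100 for the retinal types that were fitted. The comparisons ask whether cells that make or receive PDGF differ when the endothelium lacks Tgfbr1.

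The brain control library held 16649 nuclei and 49798325 UMIs, and the brain CKO library 14675 nuclei and 31033373 UMIs. The retina control held 11513 nuclei and 30989702 UMIs. The 11 retina CKO libraries ran from 104 nuclei and 90449 UMIs in replicate 4 to 18862 nuclei and 55803724 UMIs in replicate 5. Tgfbr1, the targeted gene, stood at 36.5 CPM in the brain control library and 26.2 in the brain CKO library. In retina it was 89.0 CPM in the control, 71.4 to 87.0 in 10 CKO libraries and 365 in CKO replicate 4. These are whole-library sums of 3′ tags and the deleted exons are not given in the sources used, so the values check no label. Xist, the RNA of the inactive X chromosome, was 1963 CPM in the brain control library and 1.29 in the brain CKO library. In retina, Xist was 6779 CPM in the control, 5577 to 6823 in CKO replicates 1, 2, 4 and 7, and 0.365 to 12.9 in the other 7 CKO libraries. Genotype and Xist level therefore cannot be told apart in brain. Only 2 cell barcodes in brain and 10 in retina occurred in more than 1 library.

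In brain, PDGF genes were called lower in the CKO library in 6 labelled cell types, and no member was called higher in any. A gene was called at a ratio of at least 2 or at most 0.5, among genes with at least 50 UMIs over both libraries in that label. With 1 library a genotype, a ratio compares those libraries and has no replicate check. Of 41 pairs of a member and a label with enough UMIs, 8 were called lower and 0 higher, and 27 ratios were under 1 and 14 over 1. Among all genes past the 2-fold call, 13 of the 14 labels with such pairs had more lower than higher, while ratios under 1 made up from 37.9% of all genes in ECs to 66.4% in pericytes. If members had followed each label's own shares of genes, 20.4 of the 41 ratios would lie under 1, with 3.36 called lower and 1.57 higher. The called pairs were Pdgfra in ECs (endothelial cells), Pdgfd in Glut_1, Pdgfrb in astrocytes, Pdgfb, Pdgfra and Pdgfrb in glia, Pdgfa in oligodendrocytes and Pdgfrb in pericytes.

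Each label's share of all genes called, in either direction, gives the background for these counts. In glia 3 of 6 members were called against a background of 14.7%, and in astrocytes 1 of 4 against 15.3%. In ECs 1 of 5 members was called against 13.4%, in Glut_1 1 of 4 against 8.44%, and in oligodendrocytes 1 of 2 against 24.6%. In pericytes the only member with enough UMIs was called, where the background was 43.1%. By direction, genes called lower and higher numbered 557 and 394 in glia, 404 and 130 in astrocytes, 443 and 1073 in ECs, 717 and 90 in Glut_1, 899 and 60 in oligodendrocytes and 153 and 30 in pericytes. The glia label held the most called members, and the pericyte call stood where nearly as many genes passed as did not. No member was called in vSMCs (vascular smooth muscle cells; 0 of 6, background 8.11%), CP_8 (0 of 4, 9.02%), CP_6 (0 of 3, 4.20%) or Glut_0 (0 of 2, 8.47%). The same held for OPCs (oligodendrocyte precursors; 0 of 1, 21.0%), GABA_9 (0 of 1, 4.09%), Glut_11 (0 of 1, 9.38%) and Glut_19 (0 of 1, 2.47%). The median UMIs per nucleus were lower in the CKO library in most of these labels, 879 against 582 in glia and 1150.5 against 578.5 in astrocytes, but 1347 against 1491 in ECs. Alternatives were TMM scaling (trimmed mean of M values), a minimum of 1000 UMIs per nucleus and a mean over nuclei, of which only the minimum selected nuclei by depth. Under that minimum Pdgfrb in astrocytes (0.649) and Pdgfb (0.564) and Pdgfra (0.563) in glia were no longer called, and Pdgfrb in pericytes had no value. Of the 8 called pairs, 5 were called under every such alternative run and 0 changed direction, while 12 of the 33 pairs not called changed direction under at least 1. Pdgfra in astrocytes reached a ratio of 2.07 with the minimum of 1000 UMIs, and Pdgfa in vSMCs 2.06 as a mean over nuclei. TMM scaling moved every gene's log2 ratio by -0.10 in ECs, -0.22 in glia, -0.24 in astrocytes, -0.35 in OPCs, -0.17 in vSMCs, -0.12 in CP_8, 0.15 in oligodendrocytes and -1.45 in pericytes.

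**Figure D1:**
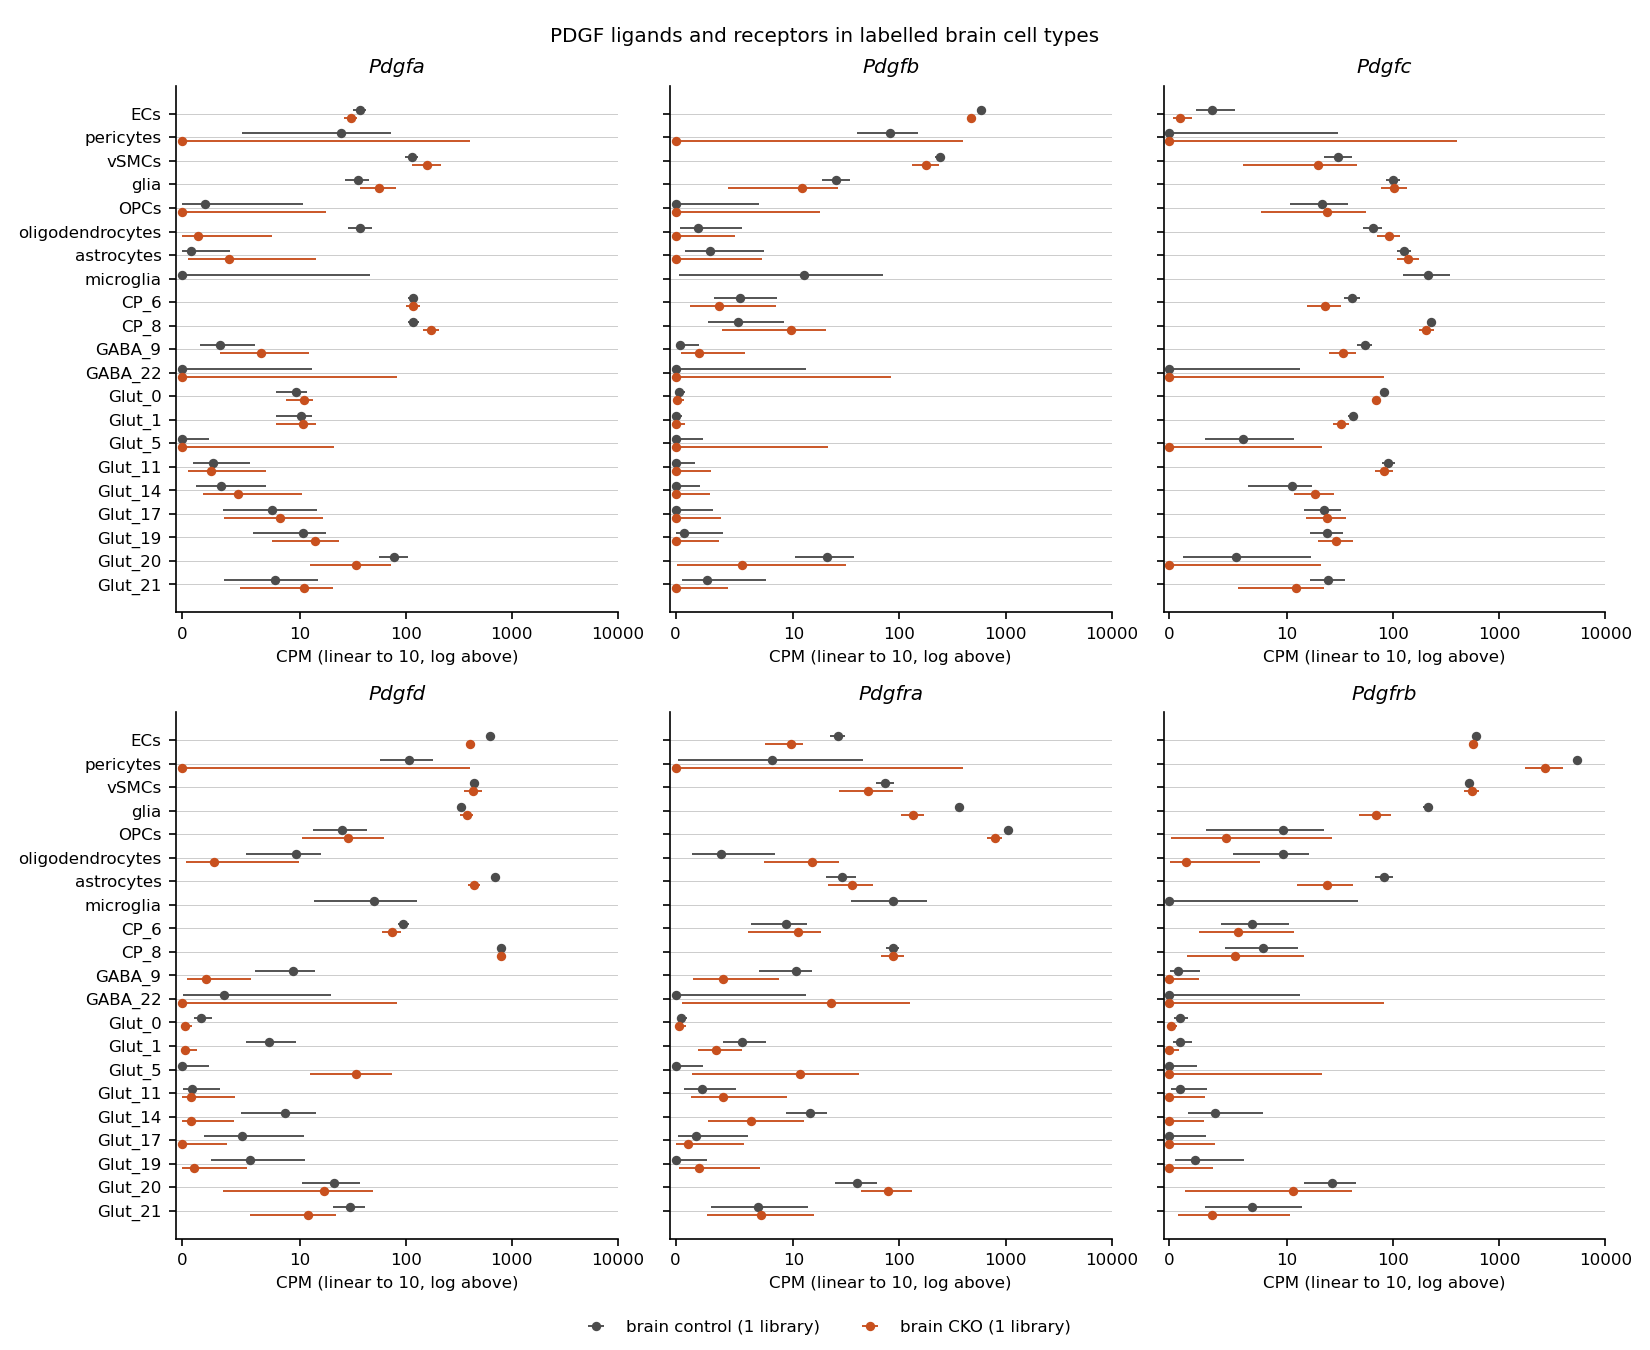
CPM of each PDGF gene (horizontal axis, linear to 10 and logarithmic above) by brain cell type label (vertical axis), for the control and the CKO library, with exact Poisson 95% intervals. Pdgfb is highest in ECs, Pdgfrb in pericytes and Pdgfra in OPCs in both libraries.

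In retina, no PDGF gene passed the test in any of the 8 cell types that could be fitted. The test was edgeR's quasi-likelihood test on UMIs summed per library, with kit version as a covariate and p adjusted over all genes tested, at a threshold of 0.05. Since there is 1 control library, the spread comes from the CKO libraries. In Müller glia, the radial glia of the retina, 0 of 5 members tested were called, where 2 of 12992 genes were (0.0154%). The count in Müller glia at an unadjusted p under 0.05 was 775 genes, and DESeq2 called 107 genes and 0 members. The 2 genes called by edgeR, named after their values were seen, were Gm17167 (log2 fold change -2.80, adjusted p 4.70e-06) and Zfp951 (-2.42, adjusted p 0.0257), both lower in CKO. Without CKO replicate 7 that count was 7, without replicate 10 it was 4, and without replicate 2, 5, 9 or 11 it was 1, with 0 members each time.

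The other 7 fitted types gave 0 members called by edgeR and 0 by DESeq2. The background was 0% in cone bipolar cells (3 members tested), rods (3) and retinal ganglion cells (3), 0.00676% in GABAergic amacrine cells (5) and 0.0145% in glycinergic amacrine cells (2). It was 0.0207% in cones and 0% in rod bipolar cells, where no member had enough UMIs to be tested. At an unadjusted p under 0.05, edgeR counted 414 genes in cone bipolar cells, 345 in rods, 138 in ganglion cells, 175 in GABAergic and 485 in glycinergic amacrine cells, 276 in cones and 367 in rod bipolar cells. DESeq2 called 193, 224, 86, 168, 183, 41 and 93 genes in those types, in that order. The 5 calls by edgeR in these types, named after their values were seen, were Gm17167 in cones and in GABAergic amacrine cells, Gm12394 in cones, and Adamts19 and Antxr2 in glycinergic amacrine cells. No count of members therefore stood above its background in retina.

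Pdgfa, the ligand of PDGFRα, was highest in brain in the labels CP_8 and CP_6 and in vascular smooth muscle cells. In the control library it was 117.9 CPM in CP_8 (268 UMIs, 95% interval 104 to 133), 116.3 in CP_6 (105 to 129) and 113.8 in vSMCs (97.6 to 132). These 3 labels had overlapping intervals, so their order is not resolved by counting error. Glut_20 followed with 77.8 CPM and an interval that overlapped that of vSMCs but not that of the next label, oligodendrocytes (37.4). ECs (36.7), glia (35.2) and pericytes (24.6, 3 UMIs) came after oligodendrocytes, each overlapping the label before it. The other 13 labels lay at 10.8 CPM or lower, among them OPCs and astrocytes with 1 UMI each. In the CKO library Pdgfa was 174.7 CPM in CP_8, 117.8 in CP_6, 158.7 in vSMCs, 56.1 in glia and 30.4 in ECs. The ratio of CKO to control was 1.59 in glia (95% interval 0.980 to 2.53), 1.48 in CP_8 (1.19 to 1.84), 1.39 in vSMCs (0.968 to 1.97), 1.01 in CP_6 and 0.827 in ECs (0.680 to 1.01), none of them called. In vSMCs fibroblast markers summed to 2147 CPM in control and 4165 in CKO, with ratios of 2.89 for Col1a1 (2.54 to 3.29) and 1.66 for Col1a2 (1.48 to 1.87), against 5082.5 and 4591 CPM for the smooth muscle list. The RNA mix of this label thus differed between the libraries, and the part of that in the vSMC ratios of the 6 members was not tested. In oligodendrocytes the CKO library held 1 Pdgfa UMI against 58 in the control, a ratio of 0.0367 (0.000914 to 0.213). Oligodendrocytes had median depths of 2328 UMIs in control and 954.5 in CKO, and the oligodendrocyte markers summed to 18943 and 20617 CPM with Mbp the most abundant and 4 of 4 detected in both.

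Retinal Pdgfa was low in every label, and its highest CKO mean was in retinal ganglion cells. In ganglion cells the control stood at 11.95 CPM (29 UMIs, 8.01 to 17.2), and 7 CKO libraries ran from 5.72 to 17.2 with a median of 12.4. The control lay inside the CKO range, with 4 CKO libraries above it and 3 below. The CKO mean was 11.8 ± 4.41 CPM (SD, n = 7), 0.987 of the control, and the two-sided exact permutation p was 1, where 8 libraries allow no p under 0.125. That ratio was 1.05 without CKO replicate 2, 1.00 without replicate 3 and 1.07 without replicate 7, so its direction depended on single libraries. Means in astrocytes (10.2 ± 11.9, n = 4) and immune cells (8.82 ± 8.67, n = 10) overlapped that of ganglion cells within 1 SD, as did those of GABAergic amacrine cells (5.63 ± 2.03, n = 10), and the other labels had means of 4.78 CPM or lower. The ganglion cell label carried its markers, which summed to 981 CPM in control and 688 to 1287 in CKO. In Müller glia Pdgfa was 1.99 CPM in the control (3 UMIs) and 0.728 to 8.48 in 10 CKO libraries with a median of 4.88. Of these 10 libraries 9 lay above the control, with a log2 fold change of 1.12 (SE 1.04, edgeR adjusted p 0.940).

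Pdgfb, the ligand that endothelial cells send to mural cells, was highest in brain in ECs and vSMCs, and in retina in immune cells, among 11 labels of which none named endothelial, pericyte or smooth muscle cells. In the brain control library it was 592 CPM in ECs (3434 UMIs, 572 to 612), 239 in vSMCs (215 to 265), 82.1 in pericytes (10 UMIs, 39.4 to 151) and 25.4 in glia (18.5 to 34.1). These 4 labels were apart in that order by their intervals, and the other 17 lay at 20.9 CPM or lower, with 7 at 0. In the CKO library Pdgfb was 474 CPM in ECs (458 to 491), 178 in vSMCs and 12.02 in glia. The ratio was 0.801 in ECs (0.763 to 0.841), 0.744 in vSMCs (0.535 to 1.01) and 0.473 in glia (44 against 6 UMIs, 0.165 to 1.11). Only the ratio in glia was called, and its interval included 1. Endothelial markers were lower in that label as well, with ratios of 0.531 for Flt1 (0.400 to 0.693), 0.627 for Cldn5 (0.410 to 0.930), 0.650 for Cdh5 (0.508 to 0.824), 0.601 for Pecam1 (0.260 to 1.23) and 0.252 for Erg (4 CKO UMIs, 0.0664 to 0.684). Whether the Pdgfb value in glia came from endothelial RNA was not tested. In glia, with nuclei of at least 1000 UMIs, the ratio was 0.564 and no longer called. The vSMCs label held endothelial RNA as well. Its control levels were 1467 CPM for Flt1, 1102 for Cldn5, 369 for Cdh5, 310 for Pecam1 and 160 for Erg. In the CKO library they were 1390, 1053, 492, 240 and 139 CPM in that order. Whether the Pdgfb value in vSMCs came from that RNA was not tested.

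The ECs label held RNA of mural cells beside endothelial RNA, which bears on each receptor and ligand value in it. Its 5 endothelial markers had a summed level of 8216 CPM in control nuclei and 6480 in CKO nuclei, with Flt1 the most abundant (3982 and 2745). These markers did not move together. Cdh5 was higher in CKO, with 667 and 1003 CPM (ratio 1.503, 1.445 to 1.564). Flt1 (ratio 0.689), Erg (0.746), Cldn5 (0.7503) and Pecam1 (0.847) were lower. The 7 pericyte markers of the ECs label summed to 7783 and 6567 CPM, with Rgs5 the most abundant (5631 and 4831), and none of the markers of either list was at 0. A pericyte marker was found in 85.3% of 2475 control and 95.3% of 2944 CKO nuclei of this label, and an endothelial marker in 99.8% and 99.6%, at median depths of 1347 and 1491 UMIs. In the neuronal label Glut_0, which should lack them, pericyte markers were found in 1.09% and 0.774% of nuclei at median depths of 5004 and 2314 UMIs. Pdgfb and Pdgfrb occurred together in 32.0% and 34.1% of EC nuclei and in 0% of Glut_0 nuclei in both libraries. The EC nuclei without a pericyte marker were 364 in control (225643 UMIs) and 139 in CKO (82411), a selection made after seeing the data. Those with one were 2111 (5575909 UMIs) and 2805 (6769443), so the selection by marker also selected nuclei by depth. In the EC nuclei without a pericyte marker Pdgfb was 691 CPM in control and 813 in CKO, a ratio of 1.18 (0.870 to 1.58). Among nuclei with no pericyte, smooth muscle or fibroblast marker it was 1.11 (0.801 to 1.52), and among EC nuclei with a pericyte marker, also selected after seeing the data, 0.800. The direction of Pdgfb in ECs thus flipped between nuclei with and without mural markers, although both intervals of the ratios over 1 also include 1, and marker and depth cannot be told apart here.

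Retinal Pdgfb was near 0 in every other label. In immune cells the control stood at 52.4 CPM (6 UMIs in 29 nuclei, 19.2 to 114), and 10 CKO libraries ran from 10.6 to 139 with a median of 31.8. The CKO mean was 44.2 ± 37.3 CPM (SD, n = 10), apart from the next highest mean by more than both SDs, and the control lay inside the range. Means in the other labels were at most 1.90 CPM. Microglia and immune markers in this label summed to 1232 CPM in control and 1221 in pooled CKO libraries, 5 of 5 detected, with P2ry12 most abundant in control and Ptprc in CKO. By library, the microglial gene P2ry12 was 393 CPM in the control and lower in 8 of 10 CKO libraries (64.1 to 1487), and Ptprc, a gene of all leukocytes, was 306 CPM and higher in 9 (296 to 1673). The label pools immune classes whose mix was not matched between groups, so its Pdgfb values compare no single class.

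Pdgfc, a ligand activated by proteolysis, had its highest brain levels in the CP_8 label and its highest retinal levels in Müller glia. In the brain control library it was 228 CPM in CP_8 (209 to 248), 213 in microglia (17 UMIs, 124 to 341), 126 in astrocytes (107 to 146), 99.3 in glia, 90.2 in Glut_11 and 81.3 in Glut_0. Each of these overlapped the next, so the descent is gradual, and ECs were among the lowest at 3.62 CPM (21 UMIs). In the CKO library it was 205 CPM in CP_8, 138 in astrocytes, 102.2 in glia, 82.7 in Glut_11, 69.1 in Glut_0 and 0.876 in ECs (6 UMIs). Of 11 labels with enough UMIs, 7 had ratios under 1 and 4 over 1, from 0.555 in CP_6 (0.363 to 0.824) to 1.42 in oligodendrocytes (1.02 to 1.96), and 0 were called.

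In retinal Müller glia Pdgfc stood at 228 CPM in the control (345 UMIs, 205 to 254) and at 113 to 279 in 10 CKO libraries with a median of 189. The control lay inside the CKO range, with 4 libraries above it and 6 below. The CKO mean was 202 ± 60.0 CPM (SD, n = 10), and the log2 fold change was -0.45 (SE 0.31, edgeR adjusted p 0.911). GABAergic amacrine cells came next, at 59.9 CPM in control and 56.3 to 102.3 in CKO with a mean of 75.3 ± 15.2 (n = 10, edgeR adjusted p 1.00). Horizontal cells (19.4 ± 15.9), immune cells (18.0 ± 13.5), ganglion cells (8.86 ± 4.38) and the remaining labels (5.01 or lower) followed. Müller glia and GABAergic amacrine cells each stood apart from the next label by more than the SDs, and below them each label overlapped its neighbour.

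Pdgfd, the ligand of PDGFRβ, was shared in brain by the CP_8 label, astrocytes and vascular labels. In the control library it was 787 CPM in CP_8 (751 to 824), 696 in astrocytes (652 to 742), 625 in ECs (605 to 646), 436 in vSMCs (404 to 471) and 334 in glia (307 to 363), each apart from the next by its interval. Pericytes (106.7, 13 UMIs) and CP_6 (95.1) followed, and the other 14 labels lay at 50.0 CPM or lower. In the CKO library it was 798 CPM in CP_8, 441 in astrocytes, 434 in vSMCs, 406 in ECs and 375 in glia. There astrocytes, vSMCs, ECs and glia formed a run in which each overlapped the next. Pdgfd was lower in CKO in ECs, with a ratio of 0.649 (0.618 to 0.682), and in astrocytes, with 0.634 (0.545 to 0.734), and lay near 1 in CP_8 (1.01), vSMCs (0.993) and glia (1.12), none of them called. In nuclei of at least 1000 UMIs it was 0.634 in CP_8 and 0.892 in glia, and with TMM 0.934 and 0.965, so the direction in these 2 labels depended on depth and scaling. In EC nuclei without a pericyte marker Pdgfd was 1985 CPM in control (448 UMIs) and 546 in CKO (45 UMIs), a ratio of 0.275 (0.198 to 0.374). In EC nuclei with one it was 569.8 and 404 CPM, a ratio of 0.709 (0.673 to 0.746). Both selections kept the direction of the whole label, and the ratio was lower in the nuclei with no pericyte marker, which were also the shallower ones.

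The only called Pdgfd pair was Glut_1, a label named for glutamatergic neurons, with 51 UMIs in control and 1 in CKO, a ratio of 0.0307 (0.000763 to 0.179). The 51 control UMIs came from 26 of 1632 nuclei (1.59%), and 1 of 2103 CKO nuclei (0.0476%) had any, at median depths of 3603 and 1653 UMIs. In Glut_0, another of the neuronal labels, Pdgfd was found in 0.7102% of control and 0.0645% of CKO nuclei at median depths of 5004 and 2314 UMIs. The control share in Glut_1 was thus above that in Glut_0, and the CKO share was not. Control shares were higher in Glut_21 (8.09%), Glut_19 (3.21%), GABA_9 (2.29%) and Glut_14 (2.14%). Ratios there, all under the UMI minimum, were 0.406, 0.173, 0.213 and 0.0910 in that order. Glut_5 went the other way, with 0 control and 6 CKO UMIs. The lower CKO level was thus not particular to Glut_1. In Glut_1 the glutamate neuron markers summed to 97.0 and 96.3 CPM with Slc17a6 the most abundant, and the pericyte markers to 6.93 and 0.226.

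**Figure D2:**
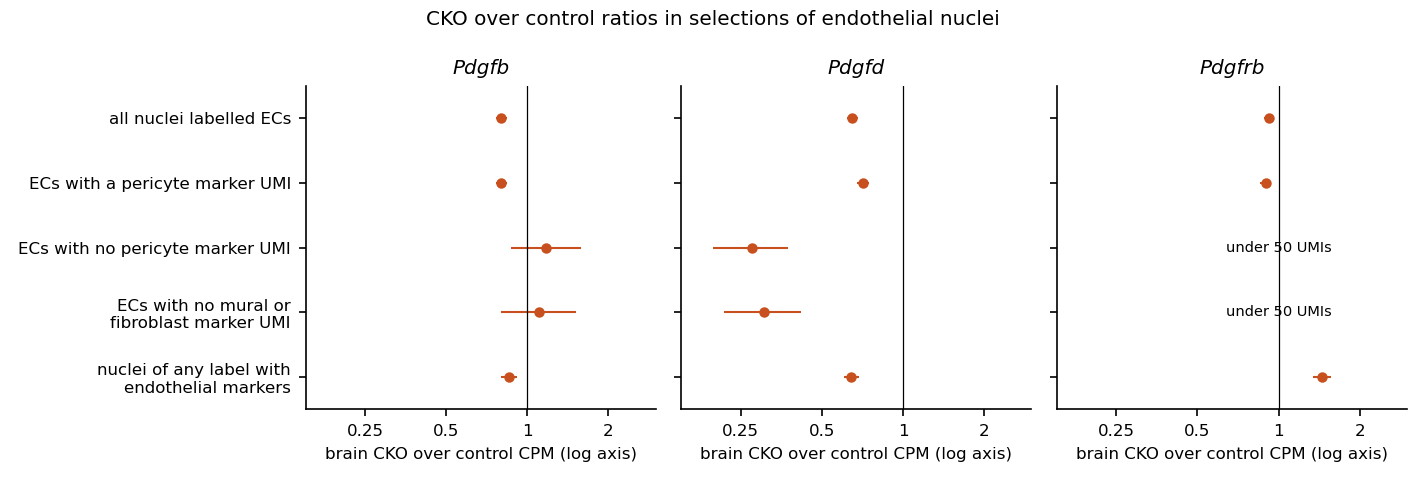
Ratio of CKO to control CPM (log axis) for Pdgfb, Pdgfd and Pdgfrb in brain ECs and in selections of nuclei by marker, with exact 95% intervals. Pdgfd lies under 1 in every selection, from 0.275 to 0.709, whereas Pdgfb lies under 1 in the whole label and over 1 in nuclei with no pericyte marker.

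In retina Pdgfd marked both amacrine classes. GABAergic amacrine cells stood at 165 CPM in the control (916 UMIs, 155 to 176) and 151 to 265 in 10 CKO libraries with a median of 208. Glycinergic amacrine cells stood at 176 CPM in the control (163 to 191) and 148 to 263 in CKO with a median of 199. In both classes the control lay inside the CKO range. The means were 208 ± 35.4 and 201 ± 34.4 CPM (SD, n = 10), which overlapped each other and that of retinal astrocytes (190.2 ± 122, n = 4). Immune cells (48.8 ± 59.4), cone bipolar cells (41.9 ± 5.75), horizontal cells (37.4 ± 19.7), ganglion cells (30.4 ± 19.4) and Müller glia (24.5 ± 11.4) followed, each overlapping the next, and Müller glia stood above the remaining labels (1.31 or lower).

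Cone bipolar and horizontal cells had more Pdgfd in every CKO library than in the control, without a call. In cone bipolar cells the control was 31.0 CPM (164 UMIs, 26.4 to 36.1) and 10 CKO libraries ran from 33.1 to 51.8 with a median of 40.5. All 10 CKO libraries lay above the control's value, which held for 7.02% of genes in this type, but the lowest lay inside its counting interval. The log2 fold change was 0.48 (SE 0.21, edgeR p 0.0376, adjusted p 1.00), and the exact permutation p of the means was 0.182, where the smallest possible was 0.0909. In horizontal cells the control was 8.01 CPM (6 UMIs in 70 nuclei, 2.94 to 17.4) and 10 CKO libraries ran from 8.46 to 68.0 with a median of 33.3. The lowest CKO library lay inside the control's counting interval, all 10 CKO libraries lay above its value, and 11.1% of genes showed that pattern. The two-sided exact permutation p was 0.273, and no fit was made for horizontal cells since the control had fewer than 100 of them.

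In retinal ganglion cells Pdgfd stood at 14.8 CPM in the control (36 UMIs, 10.4 to 20.5) and 7.33 to 58.2 in 7 CKO libraries with a median of 37.8. The groups overlapped, with 4 CKO libraries above and 3 below the control. The log2 fold change was 0.87 (edgeR p 0.481, adjusted p 1.00). Within batch 1 alone, which holds the control, the CKO libraries stood at 37.8, 58.2 and 38.0 CPM, and Pdgfd passed the test with a log2 fold change of 1.51 (edgeR adjusted p 0.0399, against 1.00 under each other alternative). That fit called 9 of 12617 genes (0.0713%), against 0 of 13453 over all libraries. CKO replicates 5, 6 and 7, from batches 2 and 3, stood at 7.33, 14.4 and 11.4 CPM, under the control, while replicate 9 of batch 3 stood above it at 45.7. In Müller glia Pdgfd was 27.1 CPM in the control and 8.69 to 45.8 in 10 CKO libraries with a median of 22.6, with the control inside the range.

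**Figure D3:**
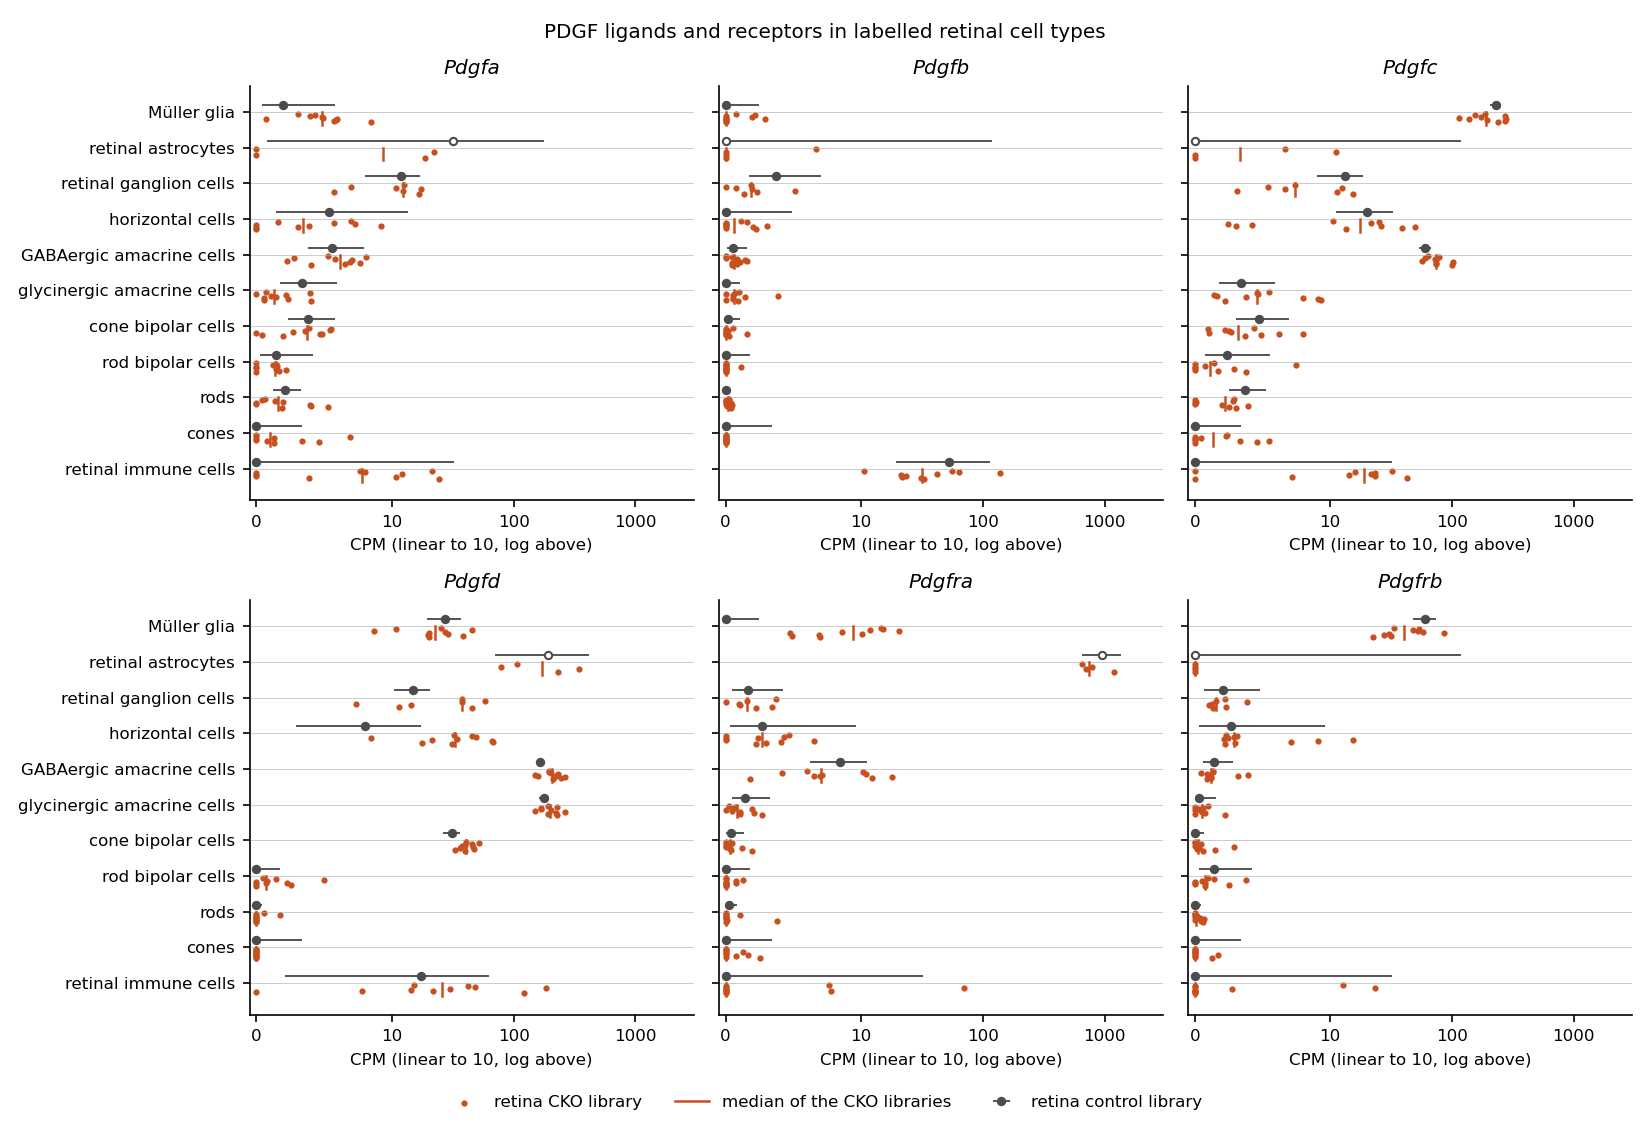
CPM of each PDGF gene (horizontal axis, linear to 10 and logarithmic above) by retinal cell type (vertical axis): each CKO library with enough nuclei (orange points, median as a line) and the control library with its exact Poisson 95% interval (grey). The open grey point is the control with 12 astrocytes, and in Müller glia all 10 CKO libraries lie above a control at 0 for Pdgfra.

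Pdgfra, the receptor of PDGF-A and PDGF-C, marked oligodendrocyte precursors in brain and astrocytes in retina. In OPCs it was 1064 CPM in the control (554 UMIs, 977 to 1156) and 790.1 in the CKO library (165 UMIs, 674 to 920.2), a ratio of 0.743 (0.620 to 0.885) that was not called. The label carried 6 of 6 OPC markers, which summed to 13340.3 and 11023 CPM with Lhfpl3 the most abundant. In nuclei of at least 1000 UMIs the ratio was 0.383, which would be called, and as a mean over nuclei 0.934. The median depth of OPC nuclei was 986 UMIs in control and 616.5 in CKO, and its part in the ratio was tested only by these alternatives.

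After OPCs came glia with 361 CPM in the control (334 to 391) and 134 in the CKO library (104 to 170.5), each apart from OPCs by its interval. The ratio in glia was 0.372 (0.284 to 0.479), and 0.563 and not called in nuclei of at least 1000 UMIs. This label carried fibroblast markers, 6 of 6 detected, which summed to 5097 CPM in control and 4936 in CKO with Col1a2 the most abundant. Its astrocyte markers summed to 2050.5 and 1849 CPM, so the label did not name 1 clear type. Single fibroblast markers had ratios of 1.03 for Col3a1 (0.915 to 1.15), 1.06 for Col1a2 (0.983 to 1.15), 1.14 for Col1a1 and 1.16 for Dcn, but 0.616 for Lum (0.292 to 1.18) and 0.416 for Slc6a13 (1570 against 188 UMIs, 0.355 to 0.484), and whether the mix of cells in this label differed was not tested. Microglia (87.6, 7 UMIs), CP_8 (86.7), vSMCs (73.1), Glut_20 (39.9) and astrocytes (28.6) followed in the control, each overlapping the next, down to ECs (26.0, 22.0 to 30.5). The 13 labels below ECs lay at 14.3 or lower, and of these only pericytes (1 UMI, 0.208 to 45.7) overlapped ECs. In ECs Pdgfra was 9.78 CPM in the CKO library, a called ratio of 0.376 (151 against 67 UMIs, 0.277 to 0.504), where fibroblast markers summed to 914 and 669 CPM. Of the 6 fibroblast markers in ECs, Slc6a13 had a ratio of 0.289 (161 against 55 UMIs, 0.209 to 0.395) and Dcn 0.484 (0.397 to 0.588), and the other 4 ran from 0.665 to 0.794 with intervals above that of Pdgfra. Of the 151 control and 67 CKO UMIs, 149 and 67 lay in nuclei with a pericyte marker. Those nuclei held 5575909 of the label's 5801552 control UMIs and 6769443 of its 6851854 CKO UMIs.

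In retinal astrocytes Pdgfra stood at 646, 704, 785 and 1193 CPM in the 4 CKO libraries with at least 20 such nuclei, a mean of 832 ± 247 (SD, n = 4). The control held only 12 astrocyte nuclei and 30 Pdgfra UMIs, 959 CPM (647 to 1369), so no comparison was made at that minimum. With no minimum, 10 CKO libraries with 6 to 61 astrocytes ran from 419 to 1193 CPM with a median of 659, around the mean of 695 ± 231. The ratio to control was then 0.725 with an exact permutation p of 0.364, where the smallest possible was 0.0909. Pax2 and Gfap, markers of retinal astrocytes, were the most abundant of the label's list in control and CKO, in that order, and Aqp4 and Igf2bp2 were at 0 in the control. A Pdgfra UMI was found in 83.3% of 12 control and 76.4% of 220 CKO astrocytes (median 2323 and 3009 UMIs). In rods, which should lack the receptor, the shares were 0.0302% and 0.0610% (median 961 and 1104 UMIs).

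Müller glia held Pdgfra UMIs in every CKO library fitted and none in the control. The control had 0 Pdgfra UMIs of 1511111 in 402 nuclei, which allows up to 1.99 CPM by a floor of 3 UMIs over that library and 2.44 CPM by the exact interval. The 10 CKO libraries with at least 100 Müller glia ran from 4.75 to 20.6 CPM with a median of 9.40, so the groups did not overlap. That pattern, every CKO library above the control, held for 1193 of 12789 genes with at least 50 UMIs (9.33%). The CKO mean was 10.4 ± 5.10 CPM (SD, n = 10), at least 5.26-fold the control's level by the floor of 3 UMIs, and a smaller fold by the exact interval. The 3 CKO libraries of the control's own batch stood at 14.4, 15.0 and 11.95 CPM, and replicate 5 was the highest. The gene did not pass the test, with an edgeR p of 0.000208 and an adjusted p of 0.334, and the exact permutation p was 0.182 (smallest possible 0.0909). The fitted log2 fold change of 7.16 (SE 1.497) depends on the prior count, since the control is at 0. With no filter on low counts the adjusted p was 0.0467, where 11 of 24404 genes were called (0.0451%), and over the other edgeR alternatives it ran from 0.0645 to 1.00.

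The 149 Pdgfra UMIs lay in 125 of 2668 CKO Müller glia (4.69%), at a median depth of 3398 UMIs, against 0 of 402 control nuclei at 3171.5. No nucleus held more than 4. Among the 125 nuclei, 96.8% had Rlbp1 or Glul, genes of a retinaldehyde-binding protein and of glutamine synthetase that mark Müller glia, 28% had Gfap and 0.8% had Pax2, at a median of 5399 UMIs. Among the 2543 CKO Müller glia without Pdgfra, 86.7% had Rlbp1 or Glul, 12.3% had Gfap and 0.472% had Pax2, at a median of 3326 UMIs. The nuclei with Pdgfra were thus deeper than the rest and more often had Gfap, while Pax2 was found in 1 of them. In labels of like or greater depth a Pdgfra UMI was found in 0.573% of control and 0.589% of CKO glycinergic amacrine cells (median 3335 and 3723 UMIs), and in 1.71% and 2.14% of GABAergic amacrine cells (4722 and 4694). The shares were 1.75% and 1.92% in ganglion cells (8555 and 8539) and 2.86% and 3.82% in horizontal cells (8969.5 and 8403). In level, the Müller glia mean overlapped those of immune cells (8.51 CPM, 7 UMIs) and GABAergic amacrine cells, where the control stood at 8.47 CPM and CKO at 1.80 to 17.9 with a mean of 8.41 ± 4.58 (n = 10). The immune cell mean was uneven over libraries, with a median of 0 CPM, a highest library at 69.7 and a pooled level of 2.86.

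Markers of some other cell types were also above the control in this label, and those of others were not. The 4 retinal astrocyte markers summed to 140 CPM in the control and 146 to 229 in CKO, above the control in 10 of 10 libraries, with Aqp4 the most abundant in the control. Of these, Gfap was above the control in 10 libraries, Pax2 in 8, Igf2bp2 in 5 and Aqp4 in 4. Gfap, which is also a gliosis gene of Müller glia, was 11.9 CPM in the control and 22.6 to 97.2 in CKO. Pax2, the defining astrocyte marker, was 0 in the control and 0 to 3.98 CPM in CKO, 14 UMIs in all. In nuclei labelled astrocytes, Pdgfra and Pax2 had 762 and 758 UMIs, and in Müller glia they had 149 and 14. Some lists of neurons were also above the control in 10 of 10 libraries: horizontal cell 0 against 1.46 to 12.2 CPM, GABAergic amacrine 3.31 against 8.59 to 41.6, glycinergic amacrine 14.6 against 16.0 to 46.3, and GABA neuron 1.32 against 2.28 to 25.6. Other lists of neurons were mixed. Cone bipolar markers were above the control in 9 of 10 libraries, glutamate neuron markers in 8, rod bipolar markers in 6 and ganglion cell markers in 4. Pericyte markers summed to 30.4 CPM against 23.6 to 53.4, above the control in 9 of 10 libraries, with Vtn the most abundant and Higd1b at 0 throughout. Single pericyte markers were above the control in 10 libraries for Vtn, 7 for Rgs5, 5 for Notch3, 1 each for Abcc9 and Kcnj8 and 0 for Atp13a5. Fibroblast markers summed to 3.97 CPM against 1.99 to 17.2, above it in 8. The highest sum was in replicate 6, and replicate 5, where Pdgfra was highest, had 11.3 CPM of fibroblast markers. Col1a1, at 0 in the control, was highest in replicate 5, at 7.40 CPM (23 UMIs). Single fibroblast markers were above the control in 9 libraries for Col1a1, 6 for Col1a2, 6 for Slc6a13, 2 for Col3a1, 1 for Dcn and 0 for Lum. Most libraries were below the control for the lists of retinal pigment epithelium (404 against 319 to 420, 9 of 10 below), vascular smooth muscle (145 against 103.0 to 156, 8), endothelium (932 against 771 to 1482, 7), cones (206 against 135 to 341, 7) and microglia and immune cells (26.5 against 17.6 to 45.8, 7). The ganglion cell list (25.1 against 9.499 to 44.05 CPM) was below the control in 6 of 10 libraries. The same held for the ependymal and choroid plexus list (13.9 against 4.29 to 18.1). Rod markers were 838 CPM against 697 to 1330.0, with 5 libraries above and 5 below. The Müller glia list itself was 3317 CPM in the control and 2518 to 3531 in CKO, and the part of RNA from other cells in the Pdgfra values was not tested.

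Pdgfrb, the receptor of PDGF-B on mural cells, was highest in brain pericytes by a wide margin. In the control library it was 5449.6 CPM in pericytes (664 UMIs in 201 nuclei, 5043 to 5880.3), 607 in ECs (587 to 627), 516 in vSMCs (481 to 553), 214 in glia (192 to 236) and 82.2 in astrocytes (67.7 to 98.9), each apart from the next. The other 16 labels lay at 26.6 CPM or lower. In the CKO library it was 2714 CPM in pericytes (25 UMIs in 22 nuclei, 1756 to 4006), 559.6 in ECs, 549.6 in vSMCs, 68.1 in glia and 23.7 in astrocytes. ECs and vSMCs overlapped there and the other neighbours among the first 5 did not. Pericytes had a called ratio of 0.498 (0.320 to 0.742), glia 0.319 (0.218 to 0.454) and astrocytes 0.289 (0.145 to 0.525), while ECs (0.922, 0.880 to 0.965) and vSMCs (1.07, 0.885 to 1.28) were not called. With pericytes and vSMCs summed the ratio was 0.712 and not called. In astrocytes the ratio was 0.649 and not called in nuclei of at least 1000 UMIs. Other alternatives lowered the ratios, to 0.182 in pericytes with TMM, and to 0.193 in glia and 0.179 in astrocytes as means over nuclei.

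The pericyte ratio rests on few nuclei whose markers also differed. Pericyte markers summed to 23719 CPM in the control, 7 of 7 detected, and to 13025 in the CKO library, 6 of 7 with Higd1b at 0, and Atp13a5 was the most abundant in both. Endothelial markers in that label summed to 1198 and 2714 CPM, with Flt1 the most abundant and Cldn5, Pecam1 and Erg at 0 in the CKO library. The summed pericyte list was thus lower as well. Of its single markers only Abcc9 had a ratio over 1, with 3324 and 3690 CPM (1.11, 0.758 to 1.58). The part of these differences in the Pdgfrb ratio was not tested. In astrocytes the pericyte markers were 277 and 271 CPM, nearly level, and in glia 973 and 723. In the EC label, Pdgfrb was 4.43 CPM in control (1 UMI) and 72.8 in CKO (6 UMIs) in nuclei without a pericyte marker, a ratio of 16.4 (1.99 to 756). Of the 3522 control and 3834 CKO Pdgfrb UMIs of the EC label, 3521 and 3828 thus lay in nuclei with such a marker. Another selection took nuclei of any label with at least 2 endothelial markers and more endothelial than pericyte marker UMIs. In those nuclei Pdgfrb was 281 and 407 CPM, a ratio of 1.45 (1.34 to 1.57). The direction of Pdgfrb thus flipped with the choice of nuclei, and this choice also used pericyte marker RNA.

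Retinal Pdgfrb was highest in Müller glia among the 11 labels, which name no mural cell. The control stood at 59.6 CPM (90 UMIs, 47.9 to 73.2) and 10 CKO libraries at 22.4 to 86.7 with a median of 40.6. The control lay inside the range, with 9 libraries below it and 1 above. The CKO mean was 44.4 ± 19.3 CPM (SD, n = 10), with 55.3 in the 6 libraries of kit version 4 and 28.1 in the 4 of version 5, and the control was made with version 4. The log2 fold change was -0.14 (SE 0.36, edgeR adjusted p 1.00). Means elsewhere were 4.96 CPM or lower and overlapped their neighbours, and retinal astrocytes had 3 Pdgfrb UMIs in 2 of 220 CKO nuclei and 0 in 12 control nuclei.

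The other genes of the pathway, a list of 24 proteases, co-receptors, adaptors, kinases and phosphatases, gave no call in Müller glia or brain ECs. In Müller glia 23 of 24 were tested, 0 were called by edgeR, 13 had positive and 10 negative log2 fold changes, and their median was 0.09. The median was -0.14 over the 5 members tested and 0.03 over all 12992 genes. The lowest p of the list was that of Stat3, a transcription factor downstream of many receptors, with a log2 fold change of 1.28 (SE 0.39, edgeR p 0.00619, adjusted p 0.592), a gene singled out after its values were seen. The log2 fold change of Stat3 was positive in every other fitted type as well, from 0.60 in cone bipolar cells to 2.20 in rods. All these fits share 1 control library and draw on the same CKO libraries, so the directions are not independent. In brain ECs 23 of 24 genes of the list had at least 50 UMIs, 0 were called, and their median ratio was 1.04, beside 0.801 for the 5 members and 1.10 for all 11351 genes. The ends of that list, also named after their values were seen, were the receptor phosphatase gene Ptprj (0.583) and the phosphatase gene Ptpn2 (1.69), with Plat, the protease that activates PDGF-C, at 0.602. Other brain labels held calls from the list: 1 higher and 2 lower of 22 in glia (background 14.7% in either direction), 3 lower of 11 in oligodendrocytes (24.6%) and 1 lower of 4 in pericytes (43.1%). There was 1 higher in astrocytes (of 12, 15.3%), CP_6 (of 22, 4.20%), CP_8 (of 19, 9.02%), vSMCs (of 22, 8.11%), Glut_1 (of 19, 8.44%) and Glut_5 (of 5, 23.3%). There was 1 lower in Glut_0 (of 18, 8.47%), Glut_11 (of 14, 9.38%), Glut_17 (of 11, 6.30%) and Glut_20 (of 4, 10.4%). With 1 to 3 calls a label, none of these counts is read as a result about the list.

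The genes whose levels across cell types were most like each member were found by Pearson's r of log2(CPM + 1). In brain this ran over 41 sums of a label and a library and 14447 genes, and in retina over 21 sums and 17301 genes. The sums share libraries and depth, so r is a description. In brain, Pdgfb was most like Prkd2 (r 0.97), Adgrf5, Pecam1, Edn1 and Nos3, and Pdgfrb was most like Notch3 (0.97), Nid1, Morrbid, Zbed3 and Tns2. Several of these are well-known endothelial genes in the case of Pdgfb, and Notch3 is a mural cell gene on the pericyte marker list. Pdgfd followed Decr1 (0.93), Tob2, Plscr4, Cpt1a and Abca1, Pdgfc followed 2900076A07Rik (0.88), Sgk3, Zmat1, Lpcat2 and Acrbp, and Pdgfa followed Eif1a (0.87), Wbp11, Prrc2a, Tm9sf3 and Rcc2. Pdgfra had the lowest top value, with Ldb1 (0.76), Cd9, Mmp2, Tmem100 and C430049B03Rik.

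In retina, Pdgfra was most like Cxcl12 (r 0.96), Igfbp2, Sec16b, Abi3bp and the astrocyte gene Pax2. That list therefore includes a marker of the label where Pdgfra was highest. Pdgfc followed Gm36169 (0.94), Qrfpr, Tshr, Efemp1 and Abca8a, and Pdgfrb followed Spc25 (0.96), Syt15, Dio2, Bves and Aldh1a1. Pdgfd followed Slco3a1 (0.94), Grik2, Lhfp, Sox5 and Gjc1, and Pdgfa followed Chml (0.91), Smco4, Timd2, Tspan2 and Marveld1. Between members the ligand and receptor pair Pdgfb and Pdgfrb had an r of 0.75 across the brain sums and -0.01 across the retinal sums, and Pdgfc and Pdgfrb had -0.25 in brain and 0.84 in retina. By r in brain, Pdgfrb ranked 1620 for Pdgfb and 14010 for Pdgfc among 14447 genes. In retina it ranked 9791 and 69 among 17301. The brain ECs label held endothelial and mural RNA together, and the part of that in the r of 0.75 was not tested.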

How the data were processed

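The authors deposited UMI counts per gene and nucleus with cell type labels. Per the methods they aligned reads with PIPseeker 3.3.0 to GRCm39 (the submitters' processing notes name mm10), removed empty droplets and background with CellBender 0.3.2 and doublets with SOLO (scVI-tools 1.2.2-post2), and removed mixed nuclei by hand, and clusters of multiple nuclei in retina CKO replicates 4 and 5. UMIs were summed per cell type label and library and divided by the total UMIs of those nuclei. Levels have exact Poisson 95% intervals and brain ratios exact conditional binomial 95% intervals, and intervals and floors (3 UMIs) cover counting error only. Labels with at least 100 nuclei in the control and in at least 3 CKO libraries were fitted with edgeR 4.0.16 in R 4.3.3 (filterByExpr, TMM, robust quasi-likelihood, Benjamini-Hochberg) on all genes, and with DESeq2 1.42.0 as an alternative. Single values were compared by two-sided exact permutation of libraries. Sums, intervals and permutations used scipy 1.17.1, pandas 2.3.3 and numpy 2.4.6 under Python 3.11.15, and plots used matplotlib 3.10.9. The fitting code was tested on simulated data.

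The 6 genes were matched by symbol: Pdgfa (chromosome 5, 138961758 to 138983435, minus strand), Pdgfb (15, 79880009 to 79899181, minus), Pdgfc (3, 80943668 to 81121473, plus), Pdgfd (9, 6168240 to 6379265, plus), Pdgfra (5, 75311994 to 75358876, plus) and Pdgfrb (18, 61178212 to 61218133, plus), by GENCODE on GRCm39. The retinal batches differ in annotation, since 1848 symbols had UMIs in batch 3 alone and 1306 in the other batches alone, but all 6 members had UMIs on both sides. Members and gene lists were chosen with earlier results of these data known. Named genes were the 6 members, genes of the pathway list called in Müller glia or brain ECs, and for each member the 5 genes with the highest r among genes with at least 200 UMIs, of which the retinal list of Pdgfb is not given. Others are marked as chosen after their values were seen. Alternatives changed the scaling, the filter, the covariates, the libraries, the minimum of nuclei, the depth of nuclei and the choice of EC nuclei. Nuclei of any label with endothelial markers had at least 2 of them and more endothelial than pericyte marker UMIs. EC nuclei split by pericyte markers, and genes counted in both retinal annotations, were alternatives chosen after seeing the data. Brain microglia of the CKO library (11 nuclei) and retina CKO replicate 4 in every label except immune cells were left out for too few nuclei.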

Additional observations from a re-analysis of the deposited data

Results flagged for a closer look

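Pdgfb in retinal immune cells of CKO replicate 4 stood at 139 CPM, from 6 UMIs, where the next highest of the 10 CKO libraries with at least 20 such nuclei had 64.1 and the lowest 10.6. This library lay far from the others for its group's range, and it was also the smallest, with 104 nuclei in all. It is 1 of 2 libraries, with CKO replicate 5, from which the methods say that whole clusters holding multiple nuclei were taken out by hand. Among 27 groups of libraries compared this way 1 was found, and chance gives about 1 in 20. Its cause was not tested.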

How the results depend on the processing

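There were 354 alternatives to 68 results. Pdgfa in retinal ganglion cells reversed direction in 3 of them, when 1 library was left out (range 0.912 to 1.07; 1.05 without CKO replicate 2, 1.00 without 3, 1.07 without 7). Of 41 brain ratios, 13 crossed 1 under at least 1 alternative, among them Pdgfb, Pdgfa (1.18 as a mean over nuclei) and Pdgfrb (1.14 as a mean over nuclei, 1.45 in nuclei of any label with endothelial markers) in ECs and Pdgfd in CP_8 (0.634 in nuclei of at least 1000 UMIs). For single genes named among many, 242 alternatives stayed inside the counting interval of the brain ratio or on the same side of the threshold of the retinal fit, 26 moved the value and 2 made it pass the test. Of those 242, 14 turned the direction, 11 in brain and 3 in retina. The 2 genes called in Müller glia became 107 with DESeq2, 11 with no filter, 1 without the kit covariate, 1 with batch as covariate, 24 within batch 1, 0 with libraries on the control's Xist side, 1 with at least 200 nuclei, and 1 to 7 with 1 library left out. PDGF genes called there became 1 with no filter, and 0 to 0 with 1 library left out. PDGF genes called in other retinal types became 1 within batch 1 (Pdgfd in ganglion cells), where genes called went from 0 to 9 in ganglion, 0 to 16 in cone bipolar, 0 to 22 in rod bipolar and 2 to 10 in glycinergic amacrine cells. Called brain pairs went from 8 to 13 as a mean over nuclei, with 8 under TMM and 6 in nuclei of at least 1000 UMIs. Pdgfb in ECs was 0.746 with TMM, 0.762 as a mean over nuclei, 0.854 in nuclei of any label with endothelial markers, 1.11 with no pericyte, smooth muscle or fibroblast marker and, chosen after seeing the data, 1.18 with no pericyte marker. Pdgfd in ECs was 0.604 with TMM, 0.736 in nuclei of at least 1000 UMIs, 0.477 as a mean over nuclei, 0.304 with no pericyte, smooth muscle or fibroblast marker and, chosen after seeing the data, 0.709 with and 0.275 without a pericyte marker. Pdgfra in OPCs was 0.582 with TMM, 0.383 in nuclei of at least 1000 UMIs and 0.934 as a mean over nuclei. Pdgfrb in pericytes was 0.182 with TMM, 0.453 as a mean over nuclei and 0.712, no longer called, with vSMCs summed in, and the minimum of 1000 UMIs gave no value since no CKO pericyte nucleus reached it. Pdgfra in retinal astrocytes, 832 CPM, ran from 712 to 894 with 1 library left out. The cause of these shifts was not tested. No paired analysis was possible because the labels name no pairs of control and CKO animals and each tissue had 1 control library. With 1 control library in each tissue, no difference can be set against variation between control animals, and the values of pericytes and retinal astrocytes rest on 22 CKO and 12 control nuclei.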
